A study of Homo sapiens with 8 samples.

Results

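The matrix metalloproteinases (MMPs) and their tissue inhibitors (TIMPs) were followed in TRAIL-sensitive and TRAIL-resistant H460 cells as 10 genes, of 19775 genes measured: MMP1, MMP2, MMP3, MMP7, MMP10, MMP13, MMP14, TIMP1, TIMP2 and TIMP3. They were chosen by name as a family, around MMP1, which was selected on its large difference between these same groups of arrays. The differences of the members are therefore given as a description, with standard errors and without p-values. All probe sets annotated to a member were used, 20 in all. H460 is an established human large-cell lung carcinoma line, grown in RPMI medium with serum. The group H460S consists of 4 arrays of control cells that remained sensitive to TRAIL, and the group H460R of 4 arrays of cells with acquired resistance after 6 months of daily, subtoxic TRAIL. TRAIL (TNFSF10) binds death receptors on the cell surface and thereby induces apoptosis. For the sensitive cells the sources used here do not describe a parallel culture over the same time, and resistance, long exposure and time in culture cannot be told apart. No source used here says that the 4 arrays of a group are from different cultures, so p-values measure the spread between arrays, which may be technical.

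MMPs are zinc-dependent endopeptidases that are made as inactive proenzymes and degrade collagens and other proteins of the extracellular matrix, receptors and growth factors. TIMPs bind the active site and block it. In lung tumours, MMPs are produced by the tumour cells and by surrounding fibroblasts and leukocytes, and several of their genes are induced by AP-1 transcription factors. The genes of MMP1, MMP3, MMP7, MMP10 and MMP13 belong to a cluster on 11q22, whereas those of MMP2, MMP14 and the TIMPs lie elsewhere.

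RefSeq promoter windows (GRCh38.p14, from 250 bases before to 50 bases after the annotated start) were at hand for 5 of the 10 members: MMP7, MMP10, MMP14, TIMP1 and TIMP3. The 100 bases before the start of 4 of them are shown: MMP7 and MMP10 as the members of the cluster that have a window, and MMP14 and TIMP1 as examples from outside it. Capitals mark motifs searched on both strands. The first is TGANTCA, a widened form of the canonical AP-1 motif TGAGTCA, which is counted in it. A second is TATAAA, the TATA box. The last is the GC box, written GGGCGG.
MMP7, chr11:102530748-102530847, minus strand: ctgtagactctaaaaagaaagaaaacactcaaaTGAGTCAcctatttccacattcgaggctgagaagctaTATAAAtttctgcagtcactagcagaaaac
MMP10, chr11:102780629-102780728, minus strand: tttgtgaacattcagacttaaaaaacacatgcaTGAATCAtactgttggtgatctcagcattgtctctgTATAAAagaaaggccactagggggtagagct
MMP14, chr14:22836485-22836584, plus strand: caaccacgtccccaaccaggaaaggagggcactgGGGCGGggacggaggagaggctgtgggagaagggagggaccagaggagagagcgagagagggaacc
TIMP1, chrX:47582336-47582435, plus strand: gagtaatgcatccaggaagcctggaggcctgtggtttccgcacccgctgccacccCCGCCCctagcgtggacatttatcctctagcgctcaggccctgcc

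Both of these cluster genes hold a TGANTCA match that begins 67 bases before the start, followed by TATAAA at 30 bases (MMP7) and 31 bases (MMP10). The match in MMP7 is the canonical TGAGTCA, and that in MMP10 is not. The site they share thus rests on the widened motif, which was added after these promoters were seen. TIMP1 and MMP14 hold GGGCGG, at 45 and 135 bases (TIMP1, on the opposite strand, the second outside the stretch shown) and 66 bases (MMP14), and neither TGANTCA nor TATAAA in the window. Windows of 3 further genes of the cluster, which are not members, did not all share the pair of motifs. MMP20 has TGANTCA at 112 bases, not in the form TGAGTCA, and TATAAA at 72 bases. MMP8 has only TATAAA, at 110 bases, and MMP27 neither. These positions differ from those in MMP7 and MMP10. TIMP3 has GGGCGG, 5 times, and neither of the other motifs. Among all 35116 windows, 4.95% hold TGAGTCA, 7.71% TGANTCA, 11.5% TATAAA and 45.0% GGGCGG. A match describes letters in the window and does not show that a factor binds there.

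MMP1 encodes interstitial collagenase, which cleaves fibrillar collagens. In log2(signal + 1), the scale of all levels below, its probe set 204475_at read 3.94, 1.87, 4.33 and 4.22 on the 4 sensitive arrays and 10.71, 10.68, 10.76 and 10.76 on the 4 resistant arrays. The groups were far apart, and the resistant arrays lay close to each other. The means were 3.59 ± 1.16 (SD, n = 4) and 10.73 ± 0.04, a difference of 7.14 ± 0.53 (standard error from limma). In linear signal, the mean went from 13.4 ± 7.46 to 1694 ± 44.5 (SD, n = 4), a ratio of 126. By the size of its rise MMP1 stood at rank 3 of 19775 genes. On sensitive arrays MMP1 was dimmer than the median probe set (5.01), where signals scatter most, and the size of the ratio depends on that dim value. More cells that express the gene and more RNA per cell cannot be told apart in such bulk samples. With a pseudocount of 16 in place of 1 the difference was 5.90, and without sensitive array 2, the dimmest, it was 6.56 ± 0.11.

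**Figure D1:**
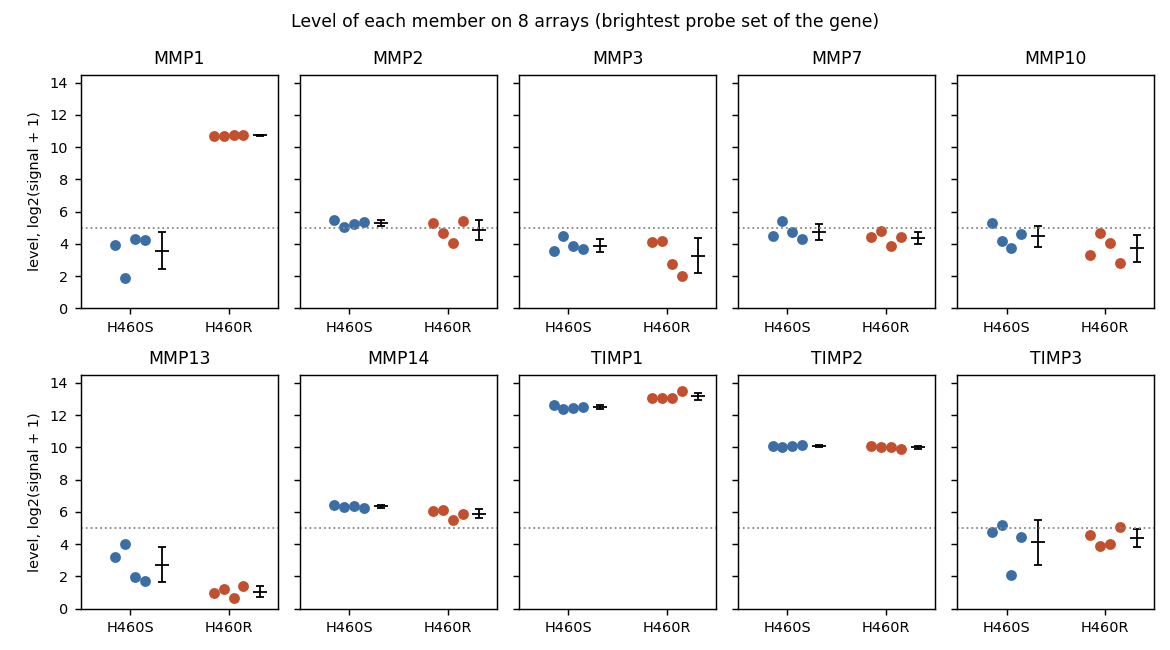
Level in log2(signal + 1) of the 10 members on each array, for the brightest probe set of each gene; blue points are the 4 sensitive (H460S) arrays, red points the 4 resistant (H460R) arrays, black bars the mean and SD, and the dotted line the median probe set (5.01). MMP1 moved from below that line to 10.73, TIMP1 and TIMP2 lay far above it in both groups, and MMP3, MMP7, MMP10, MMP13 and TIMP3 had means below it in both groups.

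In the fit across all genes, a gene is said to be called at a Benjamini-Hochberg adjusted p below 0.05 (limma). Of the 10 members 3 were past it, MMP1 and TIMP1 higher and MMP13 lower in resistant cells, which is a description only, since the same arrays chose MMP1 and its outcome was fixed by that choice. Of all genes 30.3% were called, 14.7% higher and 15.6% lower, and nothing is read from the members' count beside that share. The median difference over the members was -0.38, against -0.03 over all genes. Over the 20 member probe sets the median was 0.02, with 10 of them below 0, against -0.04 over all probe sets. A lower level of the family is therefore not read from the median over the members. Of the 20 member probe sets, 2 were called, those of MMP1 and TIMP1, against 19.5% of all probe sets. The 4 sensitive and 4 resistant arrays did not overlap for 4 members (MMP1, MMP13, MMP14 and TIMP1), where 33.9% of all genes showed no overlap. At the level of probe sets the groups did not overlap for 5 of 20, against 26.4% of all.

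Another collagenase, MMP13, which prefers type II collagen, moved in the opposite direction to MMP1 at very low signal. Its levels were 3.22, 3.999, 1.95 and 1.72 on the sensitive arrays and 0.95, 1.25, 0.68 and 1.39 on the resistant arrays. The groups did not overlap, but every value lay below the level of the median probe set. The difference was -1.65 ± 0.51, from a mean signal of 7.11 to 1.13. It was called in 5 of 14 alternative settings and not in the fit over all probe sets. Without sensitive array 1 or 2, or any 1 of the 4 resistant arrays, it was not called, with differences from -1.99 to -1.23 when 1 array was left out. With a pseudocount of 16 it came to -0.40 and was not called.

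The stromelysins MMP3 and MMP10 degrade proteoglycans and activate other proMMPs, proMMP1 among them, and the matrilysin MMP7 is typical of epithelial cells. None of these 3 neighbours of MMP1 was called, and their groups overlapped. MMP3 ranged from 3.58 to 4.47 on sensitive and from 2.01 to 4.19 on resistant arrays, a difference of -0.62 ± 0.52. MMP10 ranged from 3.77 to 5.31 and from 2.83 to 4.71, a difference of -0.75 ± 0.48. MMP7 ranged from 4.28 to 5.40 and from 3.89 to 4.80, a difference of -0.33 ± 0.29. All 3 had means below the median probe set in both groups. MMP3 and MMP10 are close paralogs, and whether their probe sets tell the transcripts apart was not tested.

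The cluster on 11q22 holds 9 measured MMP genes, in the chromosome order MMP7, MMP20, MMP27, MMP8, MMP10, MMP1, MMP3, MMP12 and MMP13. Besides MMP1, 1 of 8 was called lower (MMP13) and 0 higher by limma, where 15.6% and 14.7% of all genes were. At an unadjusted p below 0.05 the counts were 2 lower and 0 higher, and nothing is read from these counts. Every called gene, 30.3% of all, also passes this unadjusted cutoff. The full share of all genes that pass it is not given here or below. Their differences ran from -1.65 to 1.14 with a median of -0.53, and all 8 had levels below the median probe set in both groups. MMP12, the macrophage elastase, went from 4.22 ± 0.37 to 3.19 ± 0.71 (SD, n = 4), a difference of -1.02 ± 0.37 that was not called (adjusted p = 0.0765, limma). MMP8, the neutrophil collagenase, had the largest estimate of the 8, 1.14 ± 0.73, and was not called (adjusted p = 0.304, limma). MMP27 differed by -0.44 ± 0.71 and the enamel protease gene MMP20 by -0.07 ± 0.62 (adjusted p = 0.709 and 0.954, limma).

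**Figure D2:**
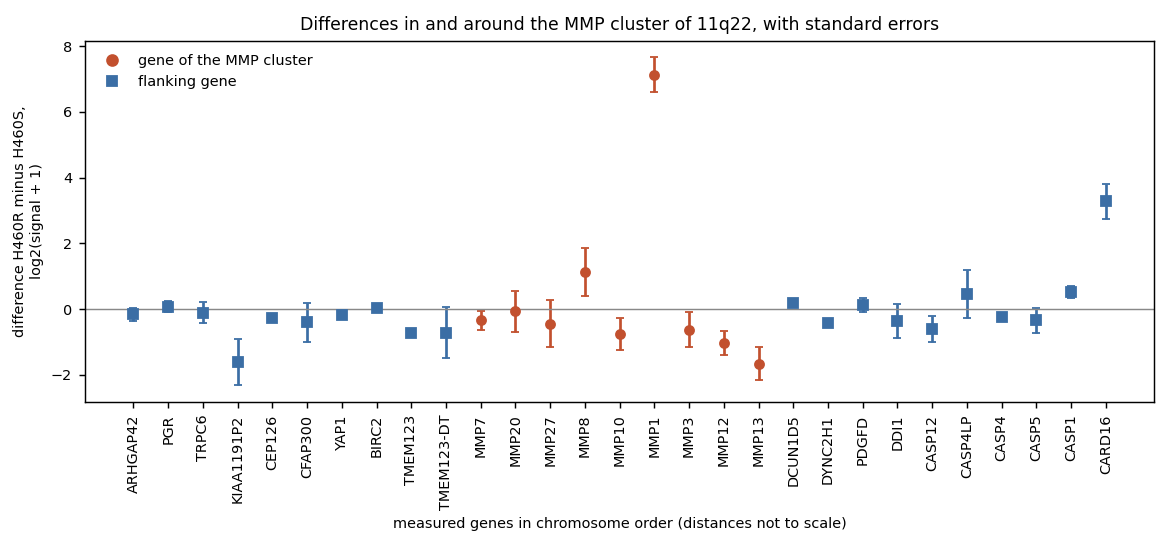
Difference between resistant and sensitive arrays, in log2(signal + 1), for 29 measured genes in chromosome order, with standard errors from limma; red circles are genes of the MMP cluster, blue squares the 10 nearest measured genes on each side. MMP1 stands at 7.14 among cluster genes between -1.65 and 1.14, and of the flanking genes CARD16, at the far end, has the largest difference.

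Of the 20 measured genes that flank the cluster, 10 on each side, 1 was called higher and 2 lower, with a median difference of -0.20. Of all genes 14.7% were called higher and 15.6% lower, and nothing is read from the count beside that. TMEM123, which encodes a membrane glycoprotein and lies next but one to MMP7, went from 12.01 ± 0.19 to 11.30 ± 0.10 (SD, n = 4), a difference of -0.71 ± 0.11 (adjusted p = 0.00292, limma). Between them lies its divergent transcript TMEM123-DT (-0.71 ± 0.77, adjusted p = 0.560, limma). On the other side, DCUN1D5, a factor of cullin neddylation, differed by 0.19 ± 0.07 and was not called (adjusted p = 0.0707, limma). DYNC2H1, a dynein heavy chain of cilia, differed by -0.43 ± 0.12 (adjusted p = 0.0330, limma) and lost its call in 9 of 15 alternative settings. Among these were leaving out sensitive array 2, 3 or 4 or resistant array 1 or 2. Differences were -0.48 to -0.33 when 1 array was left out. Averaged over its probe sets, DYNC2H1 differed by only -0.12 and was not called (adjusted p = 0.525, limma). CARD16, an inhibitor of caspase-1 activation and the farthest of these genes on that side, rose by 3.29 ± 0.54 from 3.41 to 6.69 (adjusted p = 0.00315, limma). With the mean of its probe sets it differed by 1.51 and was not called (adjusted p = 0.131, limma).

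MMP2, a gelatinase, and MMP14, a membrane-bound protease that activates proMMP2 together with TIMP2, are encoded outside the cluster. The 4 probe sets of MMP14 did not read alike. The brightest, 160020_at, read 6.45, 6.33, 6.37 and 6.26 on sensitive and 6.08, 6.15, 5.51 and 5.85 on resistant arrays. All resistant arrays lay below all sensitive ones, by -0.46 ± 0.15 on average, which was not called. The others, all dimmer, differed in the fit over all probe sets by -1.12 ± 0.48 (202827_s_at), -0.38 ± 0.38 (202828_s_at) and 0.46 ± 0.73 (217279_x_at), with overlapping groups. MMP14 was called lower in 3 of 15 alternative settings: without dim genes, with a pseudocount of 16 and without resistant array 2. The 3 probe sets of MMP2 also differed in sign, from -0.42 ± 0.30 for the brightest (1566678_at) through 0.19 ± 0.45 (1566677_at) to 0.84 ± 0.53 (201069_at). Levels of the brightest ranged from 5.04 to 5.49 on sensitive and from 4.06 to 5.40 on resistant arrays, and none of the 3 was called.

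**Figure D3:**
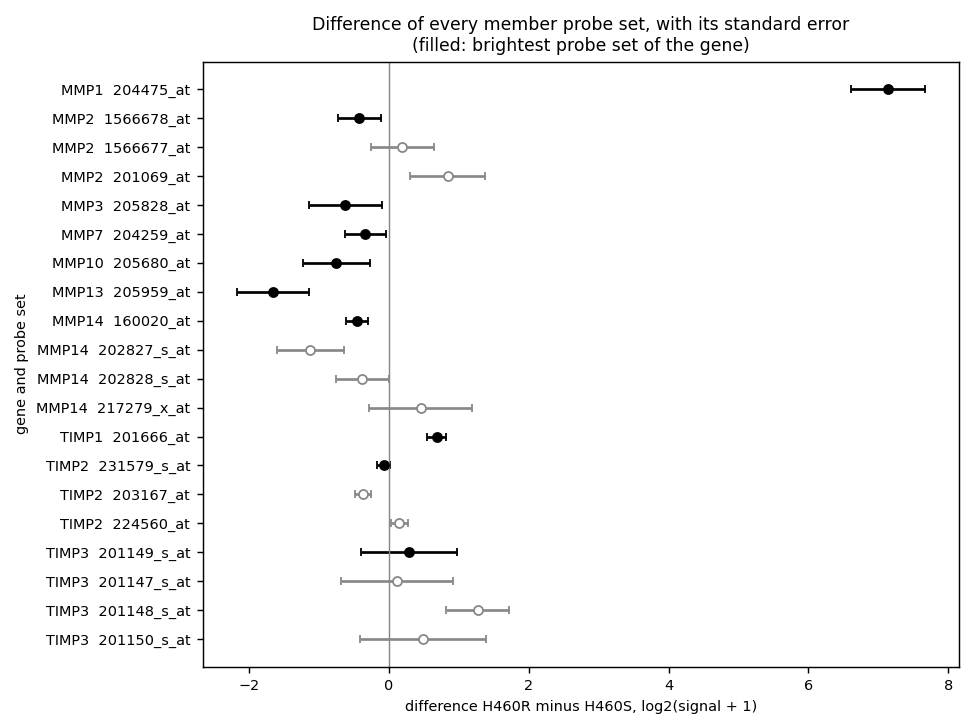
Difference between resistant and sensitive arrays, in log2(signal + 1), for all 20 member probe sets, with standard errors from limma's fit over all probe sets; filled points are the brightest probe set of each gene, open points its other probe sets. MMP1 stands alone at 7.14, and for MMP2, MMP14 and TIMP2 probe sets of the same gene lie on both sides of 0.

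TIMP1 encodes a secreted inhibitor of most soluble MMPs, MMP1 included, that also has growth-promoting activity. Its probe set 201666_at read 12.66, 12.37, 12.43 and 12.48 on sensitive and 13.07, 13.04, 13.09 and 13.48 on resistant arrays. The groups did not overlap, and resistant array 4 stood above the other resistant arrays. The mean rose from 12.48 ± 0.12 to 13.17 ± 0.21 (SD, n = 4), a difference of 0.69 ± 0.12, which in linear signal was a ratio of 1.62. Unlike MMP1, TIMP1 was already bright in sensitive cells. Over 15 alternative settings its difference ran from 0.58, without resistant array 4, to 0.76, with quantile normalization.

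TIMP2 inhibits MMPs and also takes part in the activation of proMMP2 by MMP14. Its brightest probe set, 231579_s_at, read 10.08, 10.04, 10.09 and 10.14 on sensitive and 10.09, 10.03, 10.05 and 9.88 on resistant arrays. The groups overlapped, with a difference of -0.07 ± 0.07. The probe set 203167_at read 7.77, 7.61, 7.69 and 7.51 on sensitive and 7.43, 7.33, 7.28 and 7.06 on resistant arrays. There the groups did not overlap, with a difference of -0.37 ± 0.12, which was not called. The probe set 224560_at overlapped again and had the opposite sign, 0.15 ± 0.12. TIMP3, which binds to the matrix and also inhibits ADAM proteases, had 4 probe sets, all with a suffix for possible cross-hybridisation and with means below the median level in both groups. Their differences were 0.29 ± 0.69 for the brightest and between 0.12 ± 0.80 and 1.27 ± 0.45 for the others, none of them called.

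A further 16 MMP and TIMP genes were measured that are not members, MMP8, MMP12, MMP20 and MMP27 among them. By limma 0 were called higher and 3 lower, where 14.7% and 15.6% of all genes were. At an unadjusted p below 0.05, which more than 30.3% of all genes may pass, the counts were 0 and 5. The median difference was -0.30. Of the 16, 8 lay below the median level in both groups, and nothing is read from these counts. TIMP4, the inhibitor known from heart muscle, fell from 6.02 ± 0.24 to 4.16 ± 0.36 (SD, n = 4), by 1.85 ± 0.20 (adjusted p = 0.000510, limma). MMP17, a membrane-anchored protease, differed by -0.78 ± 0.21 (adjusted p = 0.0278, limma) and MMP26, endometase, by -0.58 ± 0.16 from a dim 4.43 (adjusted p = 0.0336, limma). Both lost their calls in part of the alternatives, so that without sensitive array 1, sensitive array 3 or resistant array 3 the count fell to 1. MMP17 was also not called without resistant array 4, nor MMP26 without sensitive array 2 or resistant array 1 or 2. Leaving out 1 array gave -0.90 to -0.64 for MMP17 and -0.67 to -0.48 for MMP26. MMP9, the other gelatinase, differed by 0.04 ± 0.13 and MMP16, a membrane-type protease well measured at 8.77 and 8.76, by -0.00 ± 0.10. Neither was called (adjusted p = 0.854 and 0.985, limma); this pair was picked with the values known.

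The counts in the following lists stand beside the shares over all genes given above, 30.3% called in all (57.4% when dim genes are left out), and nothing particular to a list is read from them. Of 15 measured genes for the activation of proMMPs, 5 fell and 1 rose, with a median difference of -0.44. They encode proteases, except for PLAUR, the urokinase receptor, which is among those that fell. PLAU, the urokinase that generates plasmin, fell from 9.98 ± 0.08 to 8.54 ± 0.13 (SD, n = 4), by 1.44 ± 0.09 (adjusted p = 4.64e-05, limma). The proprotein convertase gene PCSK5 fell by 3.53 ± 0.28 and ELANE, neutrophil elastase, by 1.82 ± 0.41 at a low level (adjusted p = 0.000123 and 0.0137, limma). FURIN, the convertase that removes the propeptide of proMMP14, rose by 1.06 ± 0.14 (adjusted p = 0.00108, limma). Among 13 other regulators, 4 rose and 4 fell, with a median of -0.02. ITGA2, the integrin chain of the collagen receptor that also binds MMP1, rose from 7.83 ± 0.07 to 10.59 ± 0.16 (SD, n = 4), by 2.76 ± 0.10 (adjusted p = 5.94e-06, limma). CD44, a hyaluronan receptor that docks MMPs at the cell surface, rose by 1.36 ± 0.08, while the caveolin gene CAV1 and the serpin gene SERPINE2 fell by 0.95 ± 0.13 and 0.88 ± 0.09 (adjusted p = 3.29e-05, 0.00149 and 0.000305, limma). Averaged over its probe sets, CD44 rose by 0.83.

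Of 17 transcription factor genes of AP-1 and its partners at MMP promoters, 11 fell and 2 rose, with a median difference of -0.49 against -0.03 over all genes. That is 76.5% called, and 2 of the 17 were dimmer than the median probe set in both groups. ETV4, of the ETS family, fell by 1.51 ± 0.10, ETS1 by 1.13 ± 0.21 and the AP-1 subunit gene FOSL1 from 9.70 ± 0.10 to 8.76 ± 0.06, by 0.93 ± 0.08 (adjusted p = 6.77e-05, 0.00531 and 0.000156, limma). RUNX2, a factor known to drive MMP13, rose by 2.20 ± 0.50 from a dim 3.85 (adjusted p = 0.0140, limma), but with the mean of its probe sets it differed by 0.57 and was not called (adjusted p = 0.211, limma). After median centring 8 of the 17 fell and 2 rose, and when probe sets were averaged per gene 10 fell and 0 rose. Transcript levels do not measure the activity of these factors.

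**Figure D4:**
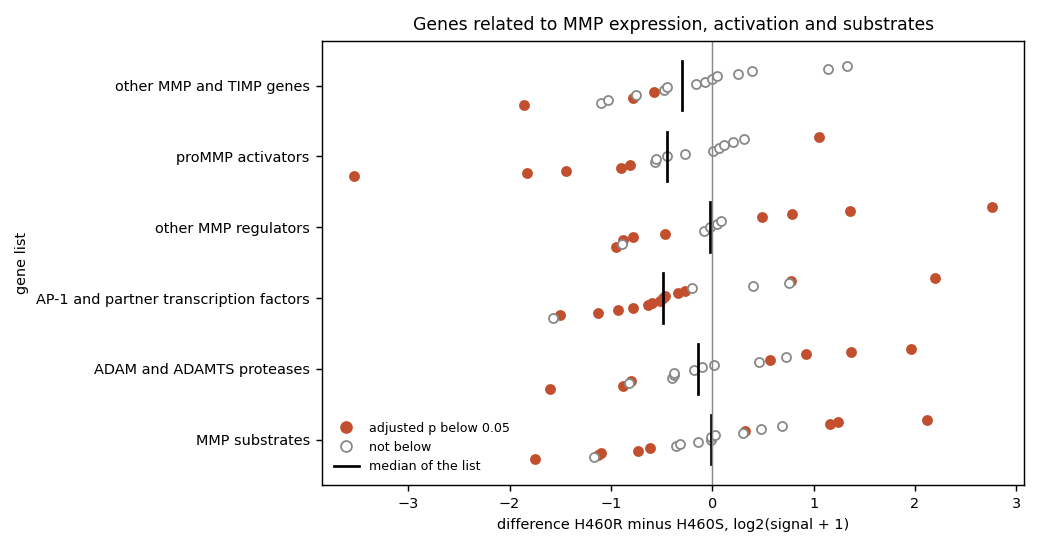
Difference between resistant and sensitive arrays, in log2(signal + 1), of single genes in 6 lists related to the family; red points passed an adjusted p of 0.05 in limma's fit over 19775 genes, open points did not, and black bars are the medians of the lists. The medians lie between -0.49 (AP-1 and partner factors) and -0.01 (MMP substrates).

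ADAM and ADAMTS proteases, which include the targets of TIMP3, moved in both directions: 4 of 16 rose and 3 fell, with a median of -0.14. ADAM12 rose from 6.42 ± 0.28 to 8.38 ± 0.30 (SD, n = 4), by 1.96 ± 0.20, and ADAMTS6 by 0.93 ± 0.13, while ADAMTS3, a procollagen peptidase, fell by 1.60 ± 0.25 (adjusted p = 0.000338, 0.00143 and 0.00270, limma). ADAM19 rose by 1.37 ± 0.19 (adjusted p = 0.00154, limma), and with the mean of its probe sets differed by 0.29 and was not called (adjusted p = 0.586, limma). Among 19 measured substrates of MMPs, 4 rose and 5 fell. HSPG2, the basement membrane proteoglycan perlecan, fell by 1.75 ± 0.18 and the fibrillar collagen chain COL5A1 rose by 1.16 ± 0.08 (adjusted p = 0.000376 and 5.53e-05, limma). TNC, the glycoprotein tenascin-C, rose by 2.12 ± 0.63 from a dim 2.44, and NID1, nidogen of basement membranes, by 1.24 ± 0.36 (adjusted p = 0.0410 and 0.0349, limma). When probe sets were averaged, TNC differed by 0.61 and was not called (adjusted p = 0.286, limma), and NID1 rose by 0.63 (adjusted p = 0.00481, limma). TNC was not called without sensitive array 2 or any 1 of the 4 resistant arrays (1.54 to 2.48 when 1 array was left out), nor NID1 without sensitive array 1, 2 or 4 or resistant array 1, 2 or 3 (1.03 to 1.54).

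The genes whose pattern over the 8 arrays was most like that of MMP1 were found by the root mean square difference of the levels after each gene's sensitive mean was subtracted. They were IL13RA2, a decoy receptor for interleukin-13 (0.76 log2 units), RGS4, a regulator of G-protein signalling (0.79), BMP2, a bone morphogenetic protein (0.87), SPINK6, a serine protease inhibitor (1.04), and POSTN, periostin (1.12). Pearson's r with MMP1 over the 8 arrays was 0.966 to 0.981 for these 5, and it mainly reflects the gap between the groups, by which MMP1 was chosen. All 5 had sensitive means below the level of the median probe set.

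**Figure D5:**
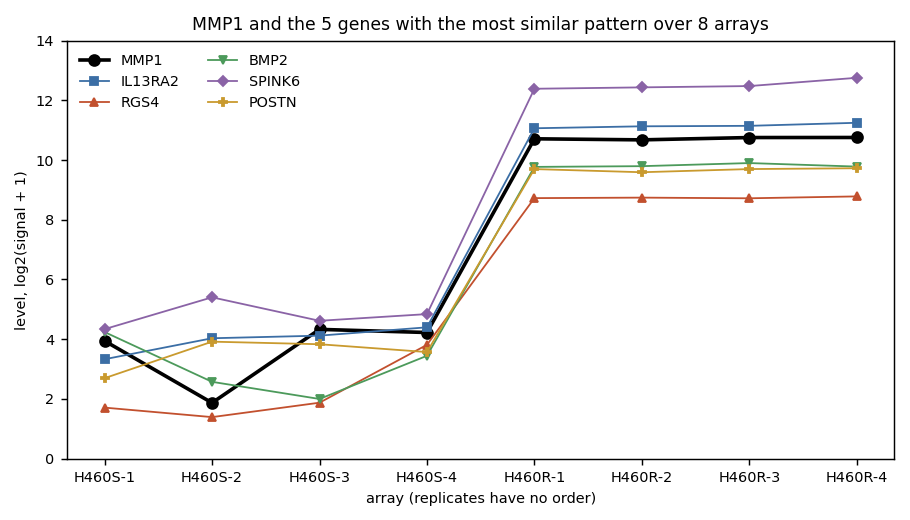
Level in log2(signal + 1) on the 4 sensitive (H460S) and 4 resistant (H460R) arrays for MMP1 (black) and the 5 genes with the most similar pattern; lines only connect the points of a gene. All 6 genes lie lower on every sensitive than on every resistant array, and their sensitive values scatter more than the resistant ones.

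The median signal lay between 32.6 and 37.4 per array, and arrays correlated with others of their group at 0.937 to 0.952 and with the other group at 0.921 to 0.929. The difference between the 3' and 5' control probe sets of ACTB, a measure of RNA quality, was 0.23 ± 0.00 on sensitive and 0.11 ± 0.01 on resistant arrays (SD, n = 4; exact permutation p = 0.0286, two-sided, the smallest that 4 against 4 arrays allow), and that of GAPDH was -0.14 ± 0.01 and -0.13 ± 0.07 (exact permutation p = 0.686). The part of RNA quality in the differences above was not tested. Of 8 epithelial markers, the keratins KRT8 and KRT18 were bright (11.4 and 13.2 in sensitive cells), while EPCAM, CDH1, CLDN4 and ESRP1 lay below the median level in both groups. By limma 0 of the 8 rose and 2 fell, KRT19 by 1.24 ± 0.10 and CLDN7 by 1.29 ± 0.08 (adjusted p = 0.000116 and 4.16e-05, limma). At an unadjusted p below 0.05 the counts were 1 higher and 3 lower. The higher one, ESRP1, differed by 1.42 ± 0.48 from a dim 2.27 and was not called (adjusted p = 0.0613, limma). With quantile normalization, median centring, a pseudocount of 16 or without sensitive array 1, 1 of the 8 was called higher.

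Other cell types that make MMPs were checked by their markers. Of 9 fibroblast markers 0 rose and 2 fell by limma (also 0 and 2 at an unadjusted p below 0.05), LUM by 3.27 ± 0.54 and PDGFRB by 1.12 ± 0.26 (adjusted p = 0.00337 and 0.0148, limma). When probe sets were averaged, LUM differed by -1.26 and was not called (adjusted p = 0.0581, limma). Of the 9, 4 lay below the median level in both groups, and the summed signal ran from 1349 to 1497 on sensitive and from 1215 to 1325 on resistant arrays. Of 6 leukocyte and macrophage markers none was called by limma (at an unadjusted p below 0.05, 1 was lower), with a summed signal of 137 to 200.02 on sensitive and 155 to 209 on resistant arrays and 4 of the 6 below the median level in both groups. Those nearest to a call were CD163 (-1.04 ± 0.36, adjusted p = 0.0683, limma; called at -1.36, adjusted p = 0.00853, without resistant array 1) and ITGAM (0.97 ± 0.59, adjusted p = 0.276, limma). Of 6 endothelial markers, 5 of them below the median level in both groups, none was called either by limma (0 at an unadjusted p below 0.05), their summed signal was 108 to 131 and 104 to 135, and PECAM1 (-0.41 ± 0.19) and CLDN5 (0.78 ± 0.37) had the smallest p-values (adjusted p = 0.150 and 0.164, limma). Without resistant array 4, PECAM1 was called lower, at -0.59 (adjusted p = 0.00398, limma). Among the fibroblast markers, COL3A1 read 9.96 and 9.95 in sensitive and resistant cells. The part of other cell types in the differences of the members was not tested.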

How the data were processed

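The deposited values are linear signal intensity values of 54675 probe sets on 8 arrays. The submitters' processing notes name RMA, but the deposited intensity values reach below 1 and have a mean of 200.0 per array after 2% of probe sets are trimmed at each end, the form of MAS 5-type signals, so the step that made them is not settled. Levels are log2(signal + 1), which understates changes of dim genes, without further normalization. The platform annotation gave 41097 probe sets 1 symbol (updated through RefSeq, GRCh38.p14, where 41043 matched). Another 1801 with several symbols or none were not used, and 11777 were not in the annotation. Each gene took its brightest probe set over all arrays (19775 genes).

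Groups were compared with limma 3.58.1 in R 4.3.3 (lmFit, eBayes, Benjamini-Hochberg over all genes, and separately over 54613 probe sets without 62 controls). The fit was tested on simulated data. The members and lists were chosen with earlier results of these data known. Besides the members, the text names the 5 genes most like MMP1, the cluster genes, the 2 nearest flanking genes per side, and of each list up to 4 called genes with the largest difference, or the 2 with the smallest p. Outside this rule the text also names MMP9, MMP16, COL3A1, KRT8, KRT18, EPCAM, CDH1, CLDN4 and ESRP1, none of them called. The motif TGANTCA was added after the promoters were seen. Alternatives changed the normalization, pseudocount, prior, filter on dim genes, probe set choice, replicate block and single arrays. The number of arrays limits the precision. Genes of the lists without a probe set of their own, and a planned comparison of protein sequences, were not analysed here.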

Additional observations from a re-analysis of the deposited data

Results flagged for a closer look

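Among the 40 groups of 4 arrays formed by the 20 member probe sets, 2 held an array far from the other 3, where chance gives about 1 in 20 groups. The MMP1 level of sensitive array 2 (1.87) lay 2.07 log2 units below the next sensitive array. The TIMP1 level of resistant array 4 (13.48) lay 0.39 above the next resistant array.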

How the results depend on the processing

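The MMP1 difference was 5.90 with a pseudocount of 16, and 6.56 to 7.38 when 1 array was left out. Each alternative called 2 or 3 members. The third was MMP13 in some and MMP14 in others. Without dim genes, only MMP1, MMP2, MMP14, TIMP1 and TIMP2 were fitted, and 3 of these were called, beside 57.4% of all genes kept. The share of all genes called changed with the setting, and nothing is read from the members' counts. The replicate numbers were not found to pair the arrays: deviations from the group means correlated between -0.03 and 0.01 for arrays of the same number. With the replicate block, 4356 genes and 5062 probe sets were called (5986 and 10637 without it), MMP13 lost its call, and 1 of the other MMP and TIMP genes stayed called, TIMP4. Without 1 array, that count was 1 to 3. Flanking genes of the cluster gave 5 calls with an intensity trend and robust prior and 6 without dim genes, against 3. None of the 34 genes from the lists that were followed through the alternatives turned its direction, nor did 8 of the members, while 2 that were not called did: MMP2 (0.20 with the mean of probe sets, against -0.42) and TIMP3 (-0.39 without sensitive array 3, against 0.29). With a pseudocount of 16, dim genes kept their direction with smaller differences: LUM -1.68, CARD16 2.13, RUNX2 1.39 and TNC 0.85. Without dim genes, 57.4% of genes were called, so calls depend on brightness, and most MMP members lie near the noise of the arrays, where a change of their transcripts may not be detectable.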
